A study of Sus scrofa with 6 samples.

Results

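Transcripts of 9 genes that mark oligodendrocyte precursor cells and the wider oligodendrocyte lineage were followed in the cerebral cortex of pigs that lack the maternal copy of UBE3A. The genes were taken by name (OLIG1, OLIG2, SOX10, PDGFRA, GPR17, CSPG4, CSPG5, LHFPL3 and MEGF11). All 9 were among the 28965 genes of the files and had enough reads to be tested, as did 14458 genes in all. The deletion animals were 3 male pigs aged 140 days with a maternally inherited deletion of UBE3A, a ubiquitin ligase gene that neurons read mainly from the maternal chromosome, and they were set against 3 wildtype males of the same age. Each library was made from polyadenylated RNA of 1 animal's frozen cortex. The sources used here do not give the extent of the deletion, the kinship of the animals or the cortical area taken.

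Oligodendrocyte precursors are the dividing glial cells from which myelinating oligodendrocytes arise, and they persist in the adult cortex. They are kept dividing by platelet-derived growth factor acting on the receptor PDGFRA, while the transcription factors OLIG1, OLIG2 and SOX10 hold lineage identity and stay on as cells mature. As a precursor commits to differentiate, PDGFRA and the proteoglycan CSPG4 are switched off, the receptor GPR17 appears for a short time, and myelin genes follow.

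The deletion libraries held 21802529 to 28109327 reads assigned to exons and the wildtype libraries 19796762 to 28126173. UBE3A stood at 7.73 to 11.7 CPM in the deletion libraries and at 87.9 to 93.7 CPM in the wildtype libraries, so each library matched its genotype label. Genes of excitatory cortical neurons were read in every library, with a summed level of 4435 to 5540 CPM in deletion cortex and 4942 to 6676 CPM in wildtype cortex for the 10 genes of that list. Levels below are TMM-scaled CPM (a gene's reads relative to library size after a scaling that matches library composition) unless they are given as TPM. Differences, deletion over wildtype, are on the log2 scale with their standard error (SE) from edgeR's quasi-likelihood test, adjusted over all 14458 genes by the Benjamini-Hochberg method. Replicate numbers only name the animals.

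None of the 9 genes passed the test at an adjusted p of 0.05. Their log2 fold changes ran from -0.36 for PDGFRA to 0.16 for OLIG1, with 6 positive, 3 negative and a median of 0.06, beside a median of 0.0028 over all tested genes. Across all genes 0.00692% were called, namely UBE3A alone. At an unadjusted p under 0.05 in edgeR there were 0 of the 9, where 7.23% of all tested genes had such a p. At an adjusted p of 0.05 both DESeq2 and limma-voom called 0 of the 9. The unadjusted p of limma-voom with sample weights was 0.0068 for PDGFRA (adjusted 0.224) and 0.023 for CSPG4 (adjusted 0.247). The share of all genes with an unadjusted p under 0.05 was not computed for limma-voom. The libraries of deletion and wildtype animals did not overlap for 1 of the 9 genes, MEGF11, where 13.9% of all tested genes had groups apart, 6.87% with the deletion libraries higher. For 6 of the 9 genes the SD among animals of 1 genotype was larger than the log2 difference between genotypes, and the exceptions were PDGFRA, CSPG4 and MEGF11.

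**Figure D1:**
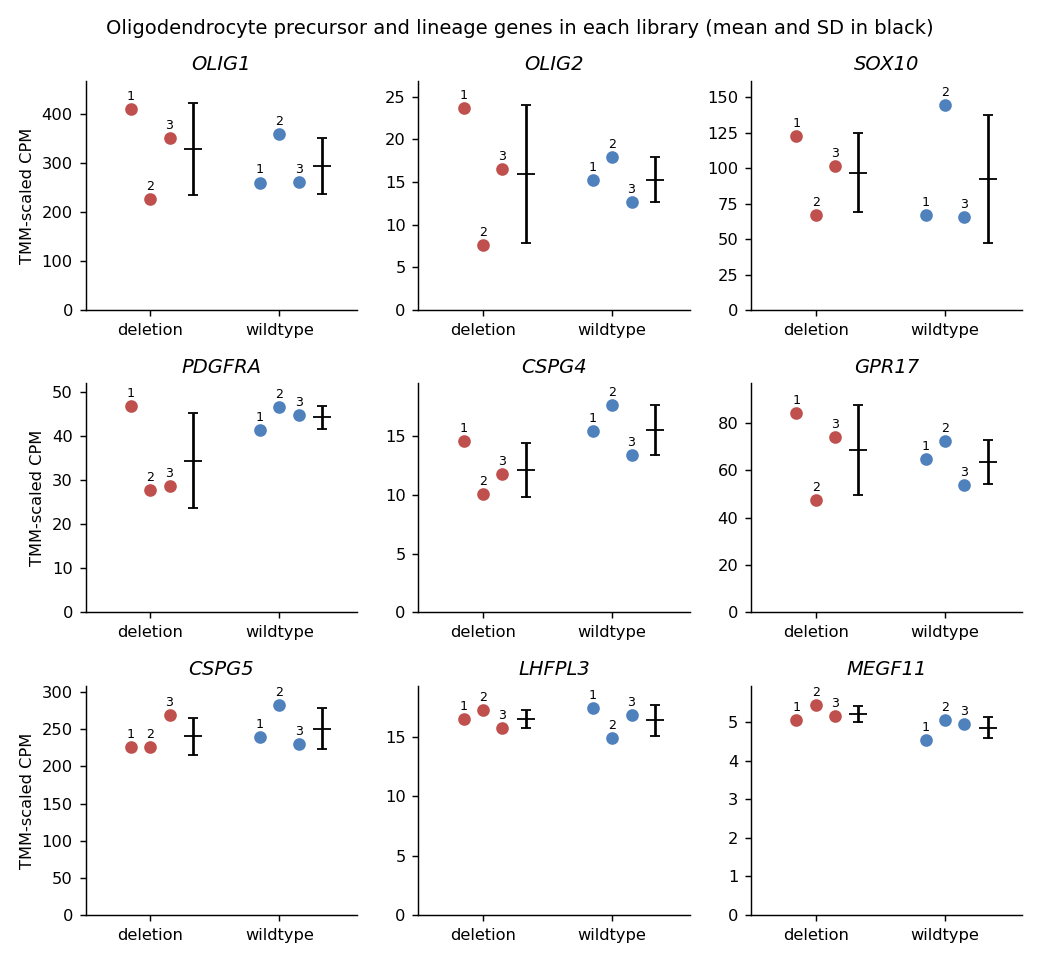
TMM-scaled CPM (y axis, from 0) of the 9 genes in the 3 deletion and 3 wildtype libraries. Each point is 1 animal, numbered by replicate, and black marks give the mean and SD of each group. PDGFRA is near 28 CPM in deletion replicates 2 and 3 and above 41 CPM in the other 4 libraries, while LHFPL3 and MEGF11 hardly vary.

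The transcription factors of the lineage did not separate the genotypes. OLIG1 (ENSSSCG00000012040), a basic helix-loop-helix factor that promotes oligodendrocyte maturation, stood at 408, 225 and 351 CPM in deletion replicates 1 to 3 and at 260, 358 and 260 CPM in wildtype replicates 1 to 3. Deletion animals thus held both the highest and the lowest value. On the log2 scale the difference was 0.16 (SE 0.23, 95% interval -0.37 to 0.70) with an edgeR adjusted p of 0.860.

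OLIG2 (ENSSSCG00000012039), the related factor needed to specify the lineage, stood at 23.7, 7.57 and 16.5 CPM in deletion cortex against 15.3, 17.9 and 12.6 CPM in wildtype cortex. Its 3.13-fold range over the 6 libraries was the widest among the 9 genes, and deletion animals again held both ends. The reads behind it were 670, 165 and 352 in the deletion libraries and 362, 520 and 251 in the wildtype libraries. The 165 reads of deletion replicate 2 carry a 95% Poisson interval of 141 to 192 reads, which covers counting error only. OLIG2 gave a log2 fold change of 0.06 (SE 0.37, edgeR adjusted p = 0.970) with a 95% interval of -0.81 to 0.94, which as a fold runs from 0.57 to 1.92. OLIG1 and OLIG2 are next to each other among the protein-coding genes of assembly Sscrofa11.1 in RefSeq. OLIG1 minus OLIG2 was 4.08, 4.8 and 4.37 on the log2 CPM scale in deletion libraries and 4.05, 4.29 and 4.31 in wildtype libraries, and was widest in deletion replicate 2.

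SOX10 (ENSSSCG00000039315), an HMG-box factor that acts from the precursor to the myelinating cell and switches on myelin genes, stood at 122, 67.0 and 102 CPM in deletion cortex against 67.0, 145 and 65.8 CPM in wildtype cortex. Here 1 wildtype animal was the highest of all and the other wildtype animals were level with the lowest deletion animal. Its log2 fold change of 0.07 (SE 0.35) had a 95% interval of -0.76 to 0.89 and an edgeR adjusted p of 0.968.

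PDGFRA (ENSSSCG00000008841), the receptor tyrosine kinase that defines the precursor stage, stood at 46.9, 27.8 and 28.8 CPM in deletion cortex against 41.5, 46.7 and 44.8 CPM in wildtype cortex. Deletion replicates 2 and 3 lay below every wildtype library, and deletion replicate 1 lay just above the highest of them. The group means were 34.5 ± 10.8 CPM in deletion cortex and 44.3 ± 2.67 CPM in wildtype cortex (SD, n = 3 each). With a log2 fold change of -0.36 (SE 0.20, 95% interval -0.82 to 0.10) PDGFRA did not pass edgeR's test (adjusted p = 0.700). Leaving out 1 deletion library moved this value both ways: it was -0.65 without replicate 1 (edgeR adjusted p = 0.143), -0.23 without replicate 2 (0.911) and -0.24 without replicate 3 (0.968). In bulk tissue, fewer precursors and less PDGFRA transcript per precursor cannot be told apart.

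Some other measures stood apart in deletion replicates 2 and 3 as well. Mitochondrially encoded transcripts took 13.7%, 16.9% and 16.1% of the reads in deletion replicates 1 to 3 and 13.1%, 11.2% and 13.6% in wildtype replicates 1 to 3. Of 4 classes of tested genes by exon length, the longest takes in PDGFRA, CSPG4 and CSPG5. In that class the median log2 level relative to the 6-library mean was 0.06, -0.05 and -0.05 in deletion libraries and 0.01, 0.03 and 0.01 in wildtype libraries. With a length trend removed in each library, an alternative chosen after seeing the data, PDGFRA had a log2 fold change of -0.34. With mitochondrial and haemoglobin genes left out before scaling, PDGFRA was at -0.36 and CSPG4 at -0.35. The part of the mitochondrial share in the result was not otherwise tested. Fibroblasts of the meninges and vessels also make PDGFRA. The 10 fibroblast genes in the files summed to 199.6, 349 and 109 CPM in deletion libraries and 304, 117 and 194 CPM in wildtype libraries, and none of them was at 0. That list was highest in deletion replicate 2 and lowest in deletion replicate 3, the libraries in which PDGFRA was low.

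GPR17 (ENSSSCG00000040850), a G protein-coupled receptor of committed precursors, stood at 84.2, 47.4 and 74.1 CPM in deletion cortex against 64.9, 72.3 and 53.9 CPM in wildtype cortex. The groups overlapped, and as for OLIG1 and OLIG2 the extremes were deletion replicates 1 and 2. Its log2 fold change of 0.11 (SE 0.21) had a 95% interval of -0.39 to 0.60 and an edgeR adjusted p of 0.906. In the RefSeq annotation of Sscrofa11.1 the gene overlaps LIMS2, and because the sources used here do not say whether strand was used in counting, reads from the shared stretch cannot be assigned with certainty.

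CSPG4 (ENSSSCG00000001873), the transmembrane proteoglycan also called NG2, stood at 14.6, 10.0 and 11.8 CPM in deletion cortex against 15.5, 17.7 and 13.4 CPM in wildtype cortex. Deletion replicates 2 and 3 lay below every wildtype library, as for PDGFRA, and deletion replicate 1 fell within the wildtype range. The means were 12.1 ± 2.28 CPM in deletion cortex and 15.5 ± 2.13 CPM in wildtype cortex (SD, n = 3 each). CSPG4 did not pass edgeR's test either (adjusted p = 0.685), with a log2 fold change of -0.35 (SE 0.17, 95% interval -0.74 to 0.04). This was -0.51 without deletion replicate 1 and -0.23 without deletion replicate 2. CSPG4 minus PDGFRA on the log2 CPM scale was -1.65, -1.42 and -1.25 in deletion libraries and -1.39, -1.38 and -1.70 in wildtype libraries, so the ranges of the genotypes overlapped. Pericytes, the mural cells of small vessels, also make CSPG4. The 11 mural cell genes, none of them at 0, summed to 319.5, 472 and 288 CPM in deletion libraries and 367, 227 and 297 CPM in wildtype libraries. That sum was highest in deletion replicate 2 and lowest in wildtype replicate 2, where CSPG4 had its lowest and its highest value. The list also holds the smooth muscle genes MYH11, ACTA2 and TAGLN. All of these peaked in deletion replicate 2 (85.7, 76.4 and 64.4 CPM) and were lowest in wildtype replicate 2. The sum therefore does not measure pericytes alone, and the part of pericytes in the CSPG4 level was not tested.

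CSPG5 (ENSSSCG00000039224), a brain proteoglycan with an EGF-like domain that is made by neurons as well as by precursors, stood at 227, 226 and 269 CPM in deletion cortex against 239.9, 282 and 231 CPM in wildtype cortex. The groups overlapped. Its log2 fold change was -0.06 (SE 0.11, 95% interval -0.32 to 0.20, edgeR adjusted p = 0.901).

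LHFPL3 and MEGF11 were the steadiest members. LHFPL3 (ENSSSCG00000035554), a tetraspan membrane protein whose transcript marks precursors in human and mouse cortex, stood at 16.5, 17.2 and 15.7 CPM in deletion cortex against 17.4, 14.9 and 16.9 CPM in wildtype cortex. Its log2 fold change was 0.01 with a 95% interval of -0.26 to 0.28, a fold of 0.84 to 1.21 (edgeR adjusted p = 0.986). MEGF11 (ENSSSCG00000004939), a transmembrane protein with repeated EGF-like domains that is known in mouse for spacing retinal neurons, stood at 5.06, 5.46 and 5.16 CPM in deletion cortex against 4.55, 5.06 and 4.97 CPM in wildtype cortex. Its groups were apart by less than 0.001 CPM between deletion replicate 1 and wildtype replicate 2, which held 143 and 147 reads with 95% Poisson intervals of 121 to 168 and 124 to 173 reads. MEGF11 had a log2 fold change of 0.10 (SE 0.17) with a 95% interval of -0.28 to 0.48 and an edgeR adjusted p of 0.881.

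**Figure D2:**
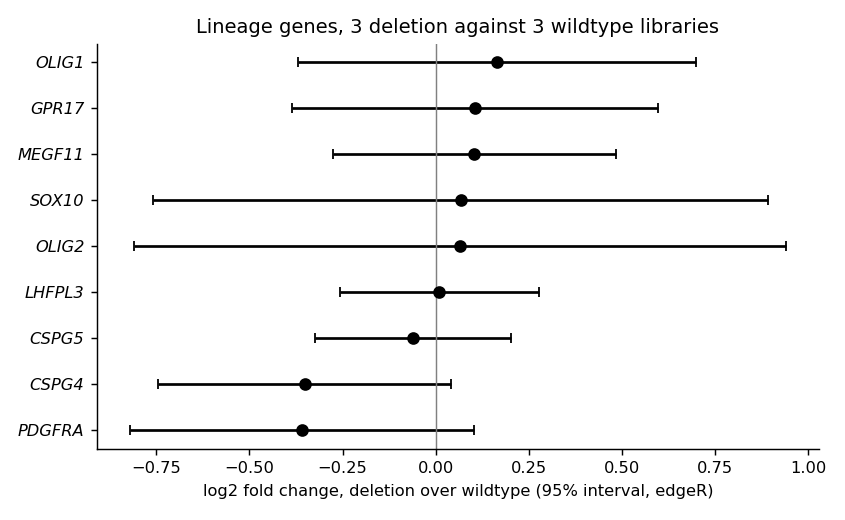
Log2 fold change of deletion over wildtype (x axis) for each of the 9 genes, with its 95% interval from edgeR, ordered from the highest at the top. Every interval covers 0, and the intervals of OLIG2 and SOX10 are the widest.

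For each of the 9 genes the authors' deposited table gives the same direction. In the authors' deposited table the signed fold change is -1.28 for PDGFRA, -1.27 for CSPG4 and -1.04 for CSPG5, and it lies between 1.02 and 1.13 for the other 6. The adjusted p in the authors' deposited table is 0.997 for 8 of them and 0.999 for LHFPL3. Both sets of values come from the same libraries.

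Per length of transcript, OLIG1 was the most abundant of the 9 genes, with 344 ± 118 TPM in deletion cortex and 335 ± 82.1 TPM in wildtype cortex (SD, n = 3 each). CSPG5 followed with 73.6 ± 7.27 TPM in deletion and 84.6 ± 13.4 TPM in wildtype cortex. SOX10 measured 64.5 ± 22.6 TPM in deletion and 67.7 ± 36.6 TPM in wildtype cortex. In a middle band, OLIG2 had 40.7 ± 23.1 TPM in deletion and 42.1 ± 9.20 TPM in wildtype cortex, and GPR17 had 37.9 ± 12.7 TPM in deletion and 38.4 ± 7.20 TPM in wildtype cortex. PDGFRA measured 12.8 ± 4.98 TPM in deletion and 17.8 ± 1.79 TPM in wildtype cortex, beside LHFPL3 with 13.5 ± 1.07 TPM in deletion and 14.6 ± 0.58 TPM in wildtype cortex. The lowest were CSPG4, with 3.75 ± 0.97 TPM in deletion and 5.22 ± 0.95 TPM in wildtype cortex, and MEGF11, with 2.20 ± 0.10 TPM in deletion and 2.25 ± 0.21 TPM in wildtype cortex. Over the 6 libraries the TPM ranges of neighbours in this order overlapped for CSPG5 and SOX10, SOX10 and OLIG2, OLIG2 and GPR17, and PDGFRA and LHFPL3. SOX10 was nonetheless above OLIG2 in all 6 libraries, whereas CSPG5 was above SOX10 in 4, OLIG2 above GPR17 in 5 and PDGFRA above LHFPL3 in 4. OLIG1, PDGFRA and LHFPL3 as a pair, CSPG4 and MEGF11 were set off from their neighbours without overlap. TPM depends on the transcript length in the authors' annotation. The direction of small differences depended on the scale. Mean TPM was lower in deletion cortex for OLIG2, SOX10, GPR17, LHFPL3 and MEGF11, whose log2 fold changes from TMM-scaled reads were positive. In TPM the groups of MEGF11 overlapped, at 2.31, 2.19 and 2.11 in deletion libraries and 2.06, 2.47 and 2.23 in wildtype libraries.

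The 9 genes differed widely in how much animals of the same genotype varied. The within-group SD of log2 CPM was 0.60 for OLIG2 and 0.55 for SOX10, above that of 96.5% and 95.5% of all tested genes, whose median was 0.18. It was 0.37 for OLIG1, 0.34 for GPR17, 0.30 for PDGFRA, 0.23 for CSPG4 and 0.15 for CSPG5. For LHFPL3 it was 0.09 and for MEGF11 0.06, above that of 14.1% and 4.73% of tested genes. MEGF11 had 99 to 147 reads per library and LHFPL3 had 335 to 467. Counting error was not separated from differences between animals in these SDs. Deletion replicate 1 held the highest level for 4 of the 9 genes (OLIG1, OLIG2, GPR17 and PDGFRA) and deletion replicate 2 the lowest for 6 (the same 4, CSPG4 and CSPG5). Wildtype replicate 2 held the highest level of SOX10, CSPG4 and CSPG5.

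**Figure D3:**
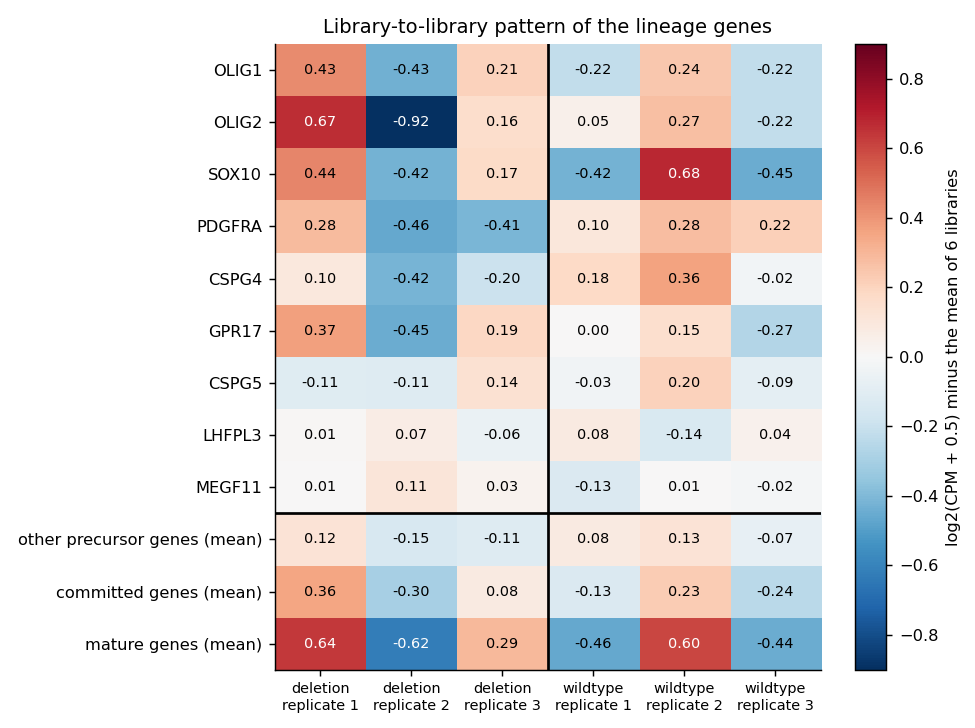
Log2(CPM + 0.5) minus the 6-library mean for the 9 genes and for the mean of 3 gene lists, in the 3 deletion and 3 wildtype libraries; red is above and blue below the mean. The mature list runs from 0.64 in deletion replicate 1 to -0.62 in deletion replicate 2. OLIG1, OLIG2, SOX10, GPR17, CSPG5 and MEGF11 share its sign in 5 or 6 of the libraries. Values of MEGF11 (-0.13 to 0.11) and CSPG5 (-0.11 to 0.20) are small, so for them a shared sign does not show that they follow the list.

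Genes of mature, myelinating oligodendrocytes varied in the same libraries. Of 19 listed, 18 were in the files, all 18 were tested and none was at 0. Their summed level was 25778, 10279 and 20290 CPM in deletion libraries and 11317, 22755 and 11137 CPM in wildtype libraries, so both genotypes held a low and a high animal. Their mean centred log2 level was 0.64, -0.62 and 0.29 in deletion libraries and -0.46, 0.60 and -0.44 in wildtype libraries. Of the 9 genes SOX10 followed this list most closely: SOX10 minus the list was -0.19, 0.20 and -0.12 in deletion libraries and 0.04, 0.08 and -0.01 in wildtype libraries. For PDGFRA the same difference was -0.35, 0.16 and -0.70 in deletion libraries and 0.57, -0.32 and 0.66 in wildtype libraries. Deletion replicate 3 thus combined a PDGFRA level below all wildtype animals with a mature list above its mean. PDGFRA minus SOX10 on the log2 CPM scale was -1.37, -1.25 and -1.80 in deletion libraries and -0.69, -1.62 and -0.55 in wildtype libraries, which overlap because of wildtype replicate 2. With the mean centred log2 level of the mature list as a covariate, edgeR gave OLIG1 a log2 fold change of 0.02 (SE 0.09). OLIG2, SOX10 and GPR17 were then at -0.23, -0.053 and -0.025, and LHFPL3, MEGF11 and CSPG5 at 0.04, 0.11 and -0.09. PDGFRA was at -0.45 (SE 0.17, edgeR adjusted p = 0.391) and CSPG4 at -0.43 (SE 0.13, edgeR adjusted p = 0.366) in that fit. How far the amount of mature oligodendrocyte RNA in each piece of cortex sets the levels of the lineage genes was not itself tested.

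**Figure D4:**
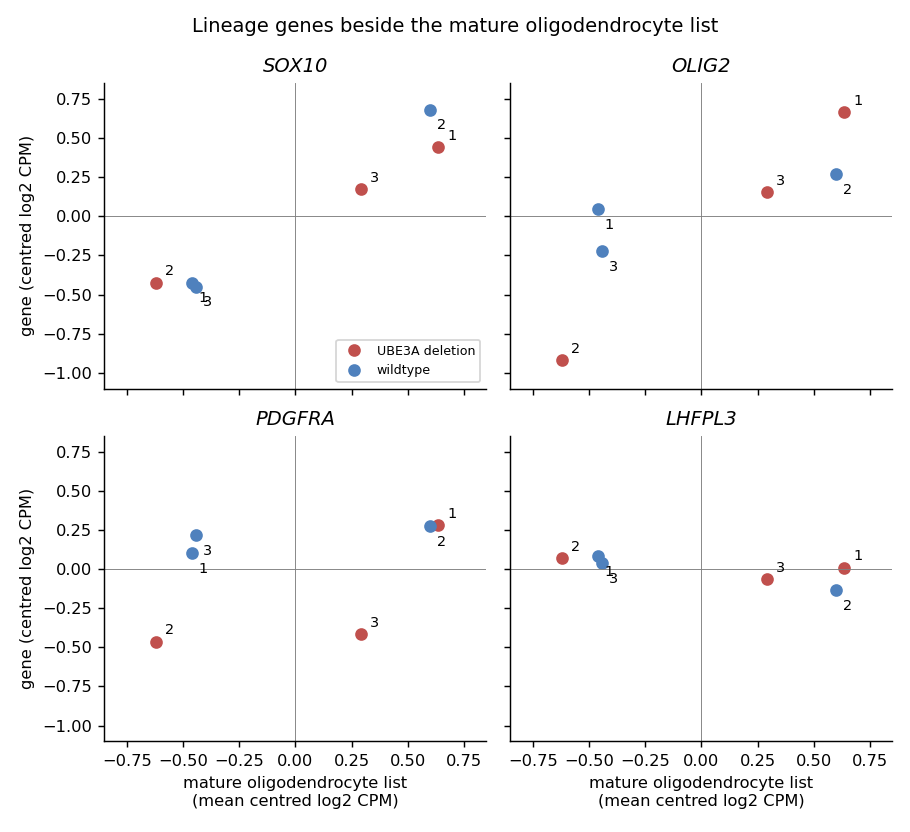
Centred log2 CPM of 4 lineage genes (y axis) beside the mean centred log2 CPM of the mature oligodendrocyte list (x axis) in the 3 deletion and 3 wildtype libraries, each point 1 animal with its replicate number. SOX10 and OLIG2 are above 0 in the 3 libraries in which the mature list is high, PDGFRA is low in deletion replicates 2 and 3 on either side, and LHFPL3 stays between -0.14 and 0.08.

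Other genes of the lineage were described from lists by stage, and in each list 0 members passed edgeR's test in either direction, with 0 also in DESeq2. Of the 20 other precursor genes 19 were tested, 8 with positive and 11 with negative log2 fold changes and a median of -0.08. SOX6, a factor that holds cells at the precursor stage, stood at 6.69, 5.78 and 6.19 CPM in deletion cortex against 8.60, 7.61 and 7.07 CPM in wildtype cortex (log2 fold change -0.32, edgeR adjusted p = 0.685). The groups did not overlap for SOX6, as for 13.9% of all tested genes, the share to set beside each such gene below. Its partner SOX5 averaged 2.64 ± 1.65 CPM in deletion cortex and 4.48 ± 2.34 CPM in wildtype cortex, and SEMA5A, a semaphorin, 8.27 ± 4.55 CPM in deletion and 12.6 ± 4.16 CPM in wildtype cortex (SD, n = 3 each). The complement-like C1QL1 averaged 26.0 ± 5.95 CPM in deletion cortex and 20.9 ± 6.42 CPM in wildtype cortex.

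Genes of committed, newly formed oligodendrocytes had 8 positive and 6 negative values among 14 tested, with a median of 0.08. BCAS1, a marker of early myelinating cells, stood at 552, 260.2 and 519 CPM in deletion cortex against 260.3, 333 and 199 CPM in wildtype cortex (log2 fold change 0.75, edgeR adjusted p = 0.683). ENPP6, a choline phosphodiesterase of new oligodendrocytes, stood at 14.5, 7.98 and 11.4 CPM in deletion cortex against 7.96, 8.98 and 6.47 CPM in wildtype cortex (log2 fold change 0.53, edgeR adjusted p = 0.683). For both genes deletion replicates 1 and 3 lay above every wildtype library while deletion replicate 2 lay within the wildtype range. GPR37 and ITPR2 had log2 fold changes of 0.25 and -0.24. BCAS1 and ENPP6 were the 2 of 14 with an unadjusted p under 0.05 in edgeR, where 7.23% of all tested genes had such a p.

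Among the 18 mature oligodendrocyte genes 15 had positive log2 fold changes, with a median of 0.22. At an unadjusted p under 0.05 in edgeR there were 0 of the 18, beside 7.23% of all tested genes. The myelin basic protein gene MBP averaged 9341 ± 3717 CPM in deletion cortex and 7198 ± 3220 CPM in wildtype cortex, and CNP, a myelin enzyme, 683 ± 242 CPM in deletion and 518 ± 201 CPM in wildtype cortex (SD, n = 3 each). OPALIN and ASPA had log2 fold changes of 0.43 and 0.57. In all 4 the groups overlapped.

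Of the 13 other transcription factors tested, 9 had positive and 4 negative values with a median of 0.14. SOX9, which acts in glial progenitors and astrocytes, stood at 56.1, 59.7 and 58.3 CPM in deletion cortex against 46.2, 40.0 and 48.1 CPM in wildtype cortex, with no overlap (log2 fold change 0.38, edgeR adjusted p = 0.683). ID4, an inhibitor of basic helix-loop-helix factors, had a log2 fold change of 0.32. The Notch target HES5 had one of -0.34 and SOX11 one of -0.37.

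Among the 6 ligands and receptors of the PDGF family besides PDGFRA, the median was -0.0079. An unadjusted p under 0.05 in edgeR was found for 2 of the 6, where 7.23% of all tested genes had one. PDGFA, the main ligand of PDGFRA on precursors, stood at 26.9, 25.7 and 31.8 CPM in deletion cortex against 29.2, 26.1 and 33.2 CPM in wildtype cortex (log2 fold change -0.07, edgeR adjusted p = 0.903). PDGFB, a ligand of endothelial cells and neurons, stood at 21.0, 19.2 and 23.2 CPM in deletion cortex against 29.2, 25.5 and 35.8 CPM in wildtype cortex (log2 fold change -0.51, edgeR adjusted p = 0.683). PDGFD, which binds the beta receptor, stood at 7.01, 5.78 and 4.55 CPM in deletion cortex against 2.70, 1.86 and 4.06 CPM in wildtype cortex (log2 fold change 1.02, edgeR adjusted p = 0.683). Neither gene passed the test. For both the groups did not overlap, as for 13.9% of all tested genes. PDGFC had a log2 fold change of 0.28 with overlapping groups.

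The 18 tested signals and receptors that act on precursors were divided, with 8 positive and 10 negative values and a median of -0.0017. The muscarinic receptor CHRM3 averaged 2.62 ± 2.09 CPM in deletion cortex and 5.09 ± 2.53 CPM in wildtype cortex, and the kappa opioid receptor OPRK1 0.81 ± 0.41 CPM in deletion and 1.53 ± 0.62 CPM in wildtype cortex (SD, n = 3 each). The Notch ligand JAG1 and the neuregulin receptor ERBB4 had log2 fold changes of 0.26 and -0.22. Of the 9 tested relatives of OLIG, LHFPL and MEGF genes, 7 had negative values with a median of -0.14. LHFPL1 stood at 1.95, 1.84 and 1.45 CPM in deletion cortex against 1.22, 0.895 and 1.05 CPM in wildtype cortex, with no overlap (log2 fold change 0.73, edgeR adjusted p = 0.683). LHFPL2 and LHFPL5 had log2 fold changes of -0.26 and -0.24.

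Mural cell genes had 9 positive values of 11 and a median of 0.22, and fibroblast genes 8 of 10 and a median of 0.22. The smooth muscle genes MYH11, ACTA2 and TAGLN had log2 fold changes of 0.75, 0.69 and 0.41, and turned negative without deletion replicate 2, at -0.46, -0.48 and -0.32. The pericyte channel gene KCNJ8 stood at 4.56, 4.36 and 3.37 CPM in deletion cortex against 2.95, 3.10 and 2.76 CPM in wildtype cortex, with no overlap (log2 fold change 0.48, edgeR adjusted p = 0.683). Of the fibroblast genes, COL3A1, OGN, SLC22A6 and DCN had log2 fold changes of 0.35, 0.34, 0.31 and 0.31, and those of COL3A1 and DCN turned to -0.43 and -0.32 without deletion replicate 2.

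**Figure D5:**
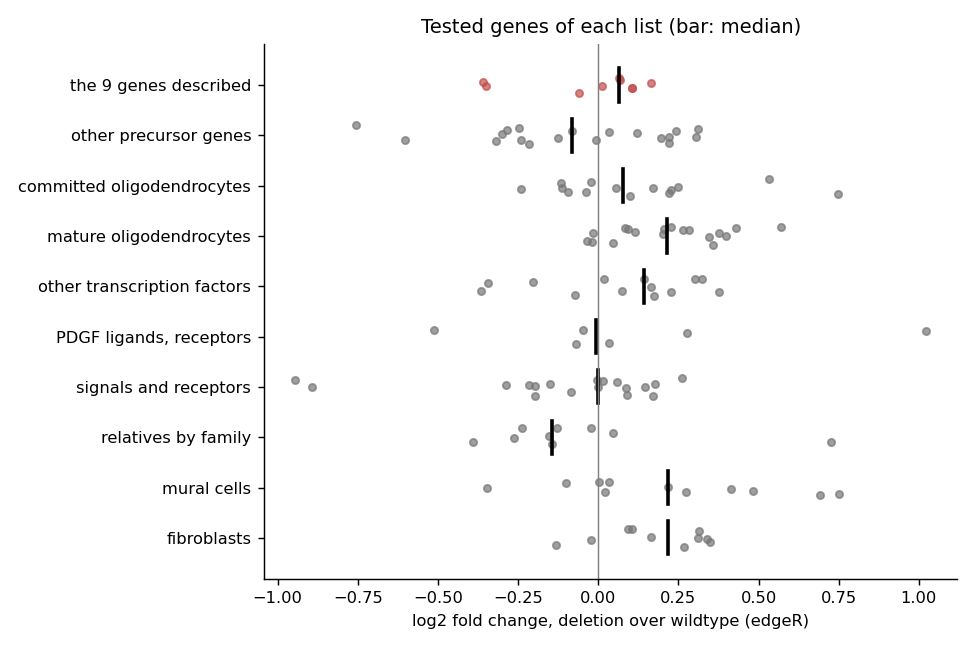
Log2 fold change of deletion over wildtype (x axis) for each tested gene of 10 lists, with a bar at the median of each list. The 9 lineage genes lie between -0.36 and 0.16, and the ends of the plot are PDGFD at 1.02 and CHRM3 at -0.94.

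The genes whose level moved most like that of PDGFRA over the 6 libraries were UGCG, TBK1, ZNF304, ZNF281 and ARID2, with a root-mean-square difference of 0.03 to 0.07 on the centred log2 scale among 1835 genes that varied at least as much as PDGFRA. UGCG, the enzyme that makes glucosylceramide, stood at 10.5, 6.10 and 6.52 CPM in deletion cortex against 9.52, 11.1 and 9.83 CPM in wildtype cortex. For the mean of the 9 genes, the closest among 4709 genes were CNTN2, MARCHF8, RBM15B, USP54 and ZNF483, with a difference of 0.05 to 0.06. These genes were chosen for their likeness over the same 6 libraries, so the likeness is a description.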

How the data were processed

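Cortex RNA of 3 UBE3A deletion and 3 wildtype pigs was sequenced as read pairs from a stranded polyadenylated-RNA kit, per the labels' protocols. The sources used here do not name the aligner, counter, genome build or strand setting. Per the file headers, the authors deposited whole-number exon read counts, RPKM and TPM per gene and library. Counts entered every test as deposited, with blanks read as 0. The authors' RPKM ranked genes by exon length, and the authors' TPM compared levels between genes. The authors' deposited comparison holds p-values and a signed fold change, treated as a score, with no test stated.

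Genes were filtered with filterByExpr, scaled with TMM and tested with edgeR 4.0.16 (quasi-likelihood, robust, no covariate; checked on simulated data) in R 4.3.3. Alternatives used DESeq2 1.42.0 and limma 3.58.1. Profiles used log2(CPM + 0.5). Symbols came from the files, with 777 added by gene ID from the gene-name table. The members and lists were chosen with earlier results of these data known. Named genes were all members and, of each lineage, mural or fibroblast list, those passing the test and then those of largest change with at least 1 CPM, up to 4. Other cell type lists are given as counts, and 1 gene that this rule names is not reported here.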

Additional observations from a re-analysis of the deposited data

How the results depend on the processing

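No member passed an adjusted p of 0.05 in the main analysis or under any of the 15 alternatives to it. No paired analysis was run because the labels state no pairing of animals across the 2 genotypes. UBE3A was the 1 gene called in the main analysis, and 2 genes were called without a low-count filter, 19 with DESeq2's Wald test and 1 to 2 when each library was left out in turn. PDGFRA stayed negative in all of these (-0.65 to -0.23, adjusted p 0.143 to 0.968), as did CSPG4 (-0.51 to -0.23, adjusted p 0.247 to 0.968), and MEGF11 stayed positive (0.06 to 0.14). The direction of the others was not stable. With the mature oligodendrocyte score as a covariate, OLIG2, SOX10 and GPR17 were at -0.23, -0.053 and -0.025. With limma-voom and sample weights OLIG2, LHFPL3 and CSPG5 were at -0.16, -0.030 and 0.022, and COL3A1 and DCN at -0.40 and -0.10. With the leading part of the animal number as a covariate OLIG2 was at -0.013, and with a length trend as offset, chosen after seeing the data, LHFPL3 was at -0.0034.

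Leaving out each library in turn gave -0.024 to 0.37 for OLIG1, -0.35 to 0.40 for OLIG2, -0.14 to 0.55 for SOX10, -0.071 to 0.31 for GPR17, -0.055 to 0.054 for LHFPL3 and -0.15 to 0.032 for CSPG5. The lowest values of OLIG1, OLIG2, SOX10 and GPR17 all came without deletion replicate 1. Among the other named genes the ranges that crossed 0 were -0.26 to 0.99 for ASPA, -0.089 to 0.52 for PDGFC, -0.16 to 0.025 for PDGFA, -0.87 to 0.078 for ERBB4, -0.46 to 1.13 for MYH11, -0.48 to 1.12 for ACTA2, -0.32 to 0.93 for TAGLN, -0.43 to 0.78 for COL3A1 and -0.32 to 0.67 for DCN. The cause of these changes was not tested. The mean of the 9 genes, deletion minus wildtype, was -0.05 on the log2 scale with a pseudocount of 0.1, 0.5 or 1 and with the median in place of the mean. A comparison on unique exon reads was not run, since total exon reads were used. With 3 animals per group, the 95% intervals ran from a fold of 0.57 to 1.92 for OLIG2 and of 0.59 to 1.86 for SOX10.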

Other observations

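Lists of the other cell types in the cortex also had 0 members past edgeR's adjusted threshold; DESeq2 called 1, the interneuron peptide gene SST. Astrocyte genes had 8 positive values among 11 tested (median log2 fold change 0.12), endothelial genes 6 of 8 (0.04) and excitatory neuron genes 5 of 10 (-0.02), while inhibitory neuron genes had 2 of 10 (-0.13) and microglial genes 3 of 12 (-0.19). The microglial list also varied between animals, but in another order than the mature oligodendrocyte list. The mean centred log2 level of the microglial list was -0.66, 0.51 and -0.09 in deletion libraries and -0.13, 0.52 and -0.16 in wildtype libraries. Deletion replicate 1, in which OLIG1, OLIG2 and GPR17 were highest, had the lowest microglial level. Wildtype replicate 2, in which SOX10, CSPG4 and CSPG5 were highest, had the highest microglial level.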
